A study of Mus musculus with 9 samples.

Results

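The imprinted Dlk1-Dio3 cluster on mouse chromosome 12 was followed here through 7 of its genes, Dlk1, Meg3, Rtl1, Rian, Mirg, Dio3 and Begain, chosen by symbol as the 7 matching rows among 30232 gene rows of the count table. Expression was measured by counting polyadenylated transcripts in mouse embryonic stem cells (MARS-seq2.0, which counts 3' ends). The 5 Gzf1-knockout libraries came from RGM cells (replicates 1 and 2, batch run2 in the labels) and V6.5 cells (replicates 3, 4 and 5, batch run1), and the 4 wild-type libraries from RGM cells (replicates 1 and 2, run2), V6.5 cells (replicate 3, run1) and a Cas9-GFP line (replicate 4, run1). V6.5 is an established hybrid mouse stem cell line, and neither the nature of the Gzf1 edit nor the clones behind the knockout libraries are given in the sources used here. Cells of both genotypes had been grown with serum and LIF on a feeder layer of irradiated embryonic fibroblasts, which was depleted before harvest.

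Imprinted genes are transcribed from only 1 of the parental chromosomes. In this cluster, Dlk1, Rtl1 and Dio3 are expressed mainly from the paternal copy and encode proteins, while Meg3, Rian and Mirg are long noncoding RNAs of the maternal copy that also give rise to small nucleolar RNAs and microRNAs. A differentially methylated region between Dlk1 and Meg3, methylated on the paternal copy, sets this pattern, and the title of the series places the zinc finger proteins Zfp57 and Gzf1 at the cluster, so that the comparison of knockout with wild type asks how its genes respond to loss of Gzf1. Loss of Meg3 expression is a known defect of some cultured mouse stem cell lines.

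In GENCODE M21 (GRCm38, the build also called mm10) the genes lie in the order Begain (109032187 to 109068217, minus strand), Dlk1 (109452823 to 109463336, plus), Meg3 (109541001 to 109571726, plus), Rtl1 (109589193 to 109600330, minus), Rian (109603940 to 109661716, plus), Mirg (109729764 to 109749460, plus) and Dio3 (110279068 to 110281097, plus). Dlk1 starts 88.2 kb before Meg3 and Mirg 188.8 kb after it. Some rows of the table merge overlapping symbols: Meg3 is counted together with Mir770 and Mir1906-1, Rian with the small nucleolar RNA DQ267101, and Mirg with 7 microRNA genes. Since how strand was handled is not given, reads of Meg3 and of the antisense transcript Gm26906 that GENCODE places inside it, or of Rtl1 and the maternal transcripts running opposite to it, cannot be told apart.

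The sequences of the microRNAs merged into the Mirg and Meg3 rows show which small RNAs the host transcripts carry. RefSeq (GRCm38.p6) lists 113 distinct mature microRNAs between the outer ends of Begain and Dio3, 105 of them on the plus strand, the strand of Meg3, Rian and Mirg. Of these, 13 belong to the 7 microRNA genes of the Mirg row and 3 to the microRNA genes of the Meg3 row. For each gene of these rows 1 mature arm is printed, first the 7 of Mirg and then those of Meg3, with the seed (bases 2 to 8, which pair with target transcripts) in capitals.
miR-382-5p: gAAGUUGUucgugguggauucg
miR-134-5p: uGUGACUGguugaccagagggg
miR-668-3p: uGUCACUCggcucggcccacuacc
miR-485-3p: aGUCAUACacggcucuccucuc
miR-412-3p: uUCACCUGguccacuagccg
miR-369-3p: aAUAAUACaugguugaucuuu
miR-410-3p: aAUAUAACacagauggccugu
miR-770-5p: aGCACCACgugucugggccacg
miR-1906: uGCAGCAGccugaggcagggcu
The seeds printed are each found in no other mature sequence of the cluster. Among the 113 sequences, 104 different seeds occur and 9 seeds are shared by more than 1 sequence; in the Mirg row only the 5p arm of miR-410 has such a seed, GGUUGUC, shared with miR-494-5p. A library of polyadenylated 3' ends counts the host transcripts, so none of the values that follow measures a mature microRNA.

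The start regions of Meg3 and Dlk1 are given because these neighbours are transcribed from opposite parental copies and flank the methylated control region. RefSeq windows of 300 bases (250 before to 50 after the start) are printed 5' to 3' on the plus strand with every CG dinucleotide, the site of DNA methylation, in capitals, Meg3 at chr12:109540746-109541045 and Dlk1 at chr12:109452573-109452872 (GRCm38.p6).
Meg3: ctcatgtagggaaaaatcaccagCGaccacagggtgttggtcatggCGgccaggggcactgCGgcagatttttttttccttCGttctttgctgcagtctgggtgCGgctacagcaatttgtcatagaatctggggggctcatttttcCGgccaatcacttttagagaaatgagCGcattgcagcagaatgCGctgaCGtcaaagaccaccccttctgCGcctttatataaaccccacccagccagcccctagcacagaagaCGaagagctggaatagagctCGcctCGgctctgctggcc
Dlk1: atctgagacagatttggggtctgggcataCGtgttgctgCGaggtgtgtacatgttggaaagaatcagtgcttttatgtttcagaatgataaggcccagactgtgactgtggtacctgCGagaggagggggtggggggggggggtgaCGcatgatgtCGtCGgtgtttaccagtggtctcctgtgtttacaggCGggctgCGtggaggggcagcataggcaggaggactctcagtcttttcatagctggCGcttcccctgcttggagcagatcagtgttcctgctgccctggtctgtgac
The Meg3 window holds 13 CG dinucleotides and the Dlk1 window 9, against a median of 7 over 32851 promoter windows of the same length. A second annotated start of Meg3 has 1 CG, the Rian window 0, the Mirg window 10, the Dio3 window 25 and the 5 windows of Begain between 34 and 46. The Mirg window lies inside the GENCODE gene and covers the mature sequences of miR-668-3p and miR-485-3p. The hexamer TGCCGC, which Zfp57 binds when it is methylated, was searched on both strands and occurs in 1 window of the cluster genes, that of Meg3, where it is read on the minus strand, while 11.6% of all promoter windows hold it. No window of Rtl1 was at hand, so the start of that gene was not searched. These matches describe the letters only, since binding and methylation were not measured in these libraries.

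Library totals ran from 2568489 to 3704162 counts in run2 and from 4872127 to 7072697 in run1. Levels are given in CPM, counts scaled to library size with TMM factors, on which a floor of 3 counts corresponded to between 0.412 and 1.18 CPM. All RGM libraries carry the batch run2 and all other lines run1, so cell line, batch and depth cannot be told apart. Gzf1 itself was measured at 5.45, 14.2, 1.66, 9.40 and 5.24 CPM in knockout replicates 1 to 5, against 28.6, 30.0, 8.11 and 18.7 CPM in wild-type replicates 1 to 4 (log2 fold change -1.45, SE 0.42, edgeR, unadjusted p = 0.0048, adjusted p = 0.9998). Gzf1 was called lower by edgeR when low rows were kept (-1.46, SE 0.26, adjusted p = 5.0e-05) and with a replicate block (-1.58, SE 0.26, adjusted p = 0.027). It was also called lower by limma voom (-1.83, SE 0.32, adjusted p = 0.031). DESeq2 did not call it (adjusted p = 0.34, and 0.50 when low rows were kept). The genotypes did not overlap in RGM cells but did in run1, where knockout replicate 4 had more Gzf1 than wild-type replicate 3. Counts of 3' ends need not fall in the edited part of the gene, so they do not check the edit. Markers of embryonic stem cells (10 genes, all detected in every library) summed to 4752 to 5244 CPM in knockout and 5514 to 6108 CPM in wild-type libraries of run2, with no overlap, and to 4615 to 6404 CPM in knockout and 5094 to 6410 CPM in wild-type libraries of run1. The lower sum in run2 was not shared by the list: there 5 of the 10 markers lay higher in the knockout and 5 lower (median log2 fold change -0.04). By edgeR 0 of them were called in run2, and 0 had an unadjusted p under 0.05. Among rows with any count, 13.1% had every knockout library below every wild-type library in run2. The part of the marker sums in the levels of the cluster genes was not tested.

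In CPM the maternal noncoding RNAs were lower in every knockout library than in every wild-type library. In the fitted comparison Meg3 was 4.98-fold and Mirg 9.69-fold lower. Rian had 0 to 8 counts in knockout and 5 to 98 counts in wild-type libraries, so its raw counts overlapped. In CPM its nearest libraries were at 1.67 (knockout) and 1.97 (wild type), with overlapping Poisson intervals. The low-count filter passed 4 cluster genes (Dlk1, Meg3, Mirg and Begain). With the quasi-likelihood test of edgeR and adjustment over 12645 tested genes, 0 of these 4 were called (0.0316% of all tested genes were called lower). An unadjusted p under 0.05 was found for 3 of the 4, and for 293 of the 12645 tested genes. DESeq2 on the same 12645 genes also called 0 of the 4 cluster genes. In these bulk libraries fewer cells of a type and less RNA per cell cannot be told apart.

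Meg3, the long noncoding RNA that starts nearest to the control region, had 35.9, 52.5, 17.1, 47.6 and 9.67 CPM in knockout replicates 1 to 5 (59 to 228 counts), against 174, 117, 257 and 73.7 CPM in wild-type replicates 1 to 4 (297 to 1873 counts). The highest knockout library was the second RGM replicate and the lowest wild-type library the Cas9-GFP line, and the groups did not overlap. Means were 32.6 ± 18.7 CPM (SD, n = 5) in knockout and 156 ± 79.3 CPM (SD, n = 4) in wild-type libraries, with a log2 fold change of -2.31 (SE 0.48, 4.98-fold lower, unadjusted p = 0.00069, adjusted p = 0.9692, edgeR). Without wild-type replicate 3, the V6.5 library with the highest Meg3, the fold was 3.18.

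Mirg, the microRNA host at the far end of the maternal transcripts, had 1.28, 3.55, 1.11, 6.89 and 0.656 CPM in knockout replicates 1 to 5 (4 to 33 counts), against 12.1, 22.1, 47.0 and 13.6 CPM in wild-type replicates 1 to 4 (45 to 342 counts). No knockout library reached the level of a wild-type library, and V6.5 replicate 4 came nearest. Means were 2.70 ± 2.60 CPM (SD, n = 5) in knockout and 23.7 ± 16.1 CPM (SD, n = 4) in wild-type libraries, with a log2 fold change of -3.28 (SE 0.61, 9.69-fold lower, unadjusted p = 0.000198, adjusted p = 0.3136, edgeR). The fold was 17.1 without knockout replicate 4 and 5.92 without wild-type replicate 3. Of the 12645 tested genes Mirg had the lowest log2 fold change in this comparison.

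Rian, host of the small nucleolar RNAs of the cluster, did not pass the low-count filter and is given as raw counts. Its row held 0, 0, 2, 8 and 1 counts in knockout replicates 1 to 5, against 8, 5, 98 and 22 counts in wild-type replicates 1 to 4. On the CPM scale the highest knockout library, V6.5 replicate 4, had 1.67 CPM (95% Poisson interval 0.721 to 3.29) and the lowest wild-type library, RGM replicate 2, had 1.97 CPM (0.641 to 4.61), so the groups did not overlap but the intervals of these neighbours did. In RGM cells the knockout libraries together held 0 counts against 13 in wild-type libraries. With the floor of 3 counts over the pair in place of 0, this would be 3.93-fold lower. That figure leaves out the counting error of the 13 counts. In run1 the knockout libraries held 11 counts in all and the wild-type libraries 120.

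On the CPM scale Meg3, Mirg and Rian were thus 3 of 7 cluster genes without overlap. In the table as a whole 0.241% of the 20372 rows with any count had every knockout value below every wild-type value. A single-value test covers the low rows as well. Genotype labels were permuted separately in each run, which gives 60 arrangements and a smallest two-sided exact p of 0.017. The difference in mean log2(CPM + 1), averaged over the runs, was -2.21 for Meg3 (exact permutation p = 0.033), -2.78 for Mirg (exact p = 0.033) and -2.03 for Rian (exact p = 0.017). With a pseudocount of 0.25 CPM in place of 1, Rian had a difference of -3.29 (exact p = 0.033). These 3 genes were the cluster genes with an exact p under 0.05, and 0.888% of all rows with any count had such a p with lower knockout values. Without wild-type replicate 3 the exact p of Meg3 was 0.083, and without any 1 of the V6.5 knockout replicates 3, 4 and 5 the design could give no p below 0.056, the value that all 3 genes then had. The p-values are not adjusted over the 7 genes, because the genes were chosen with results of these data known.

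**Figure D1:**
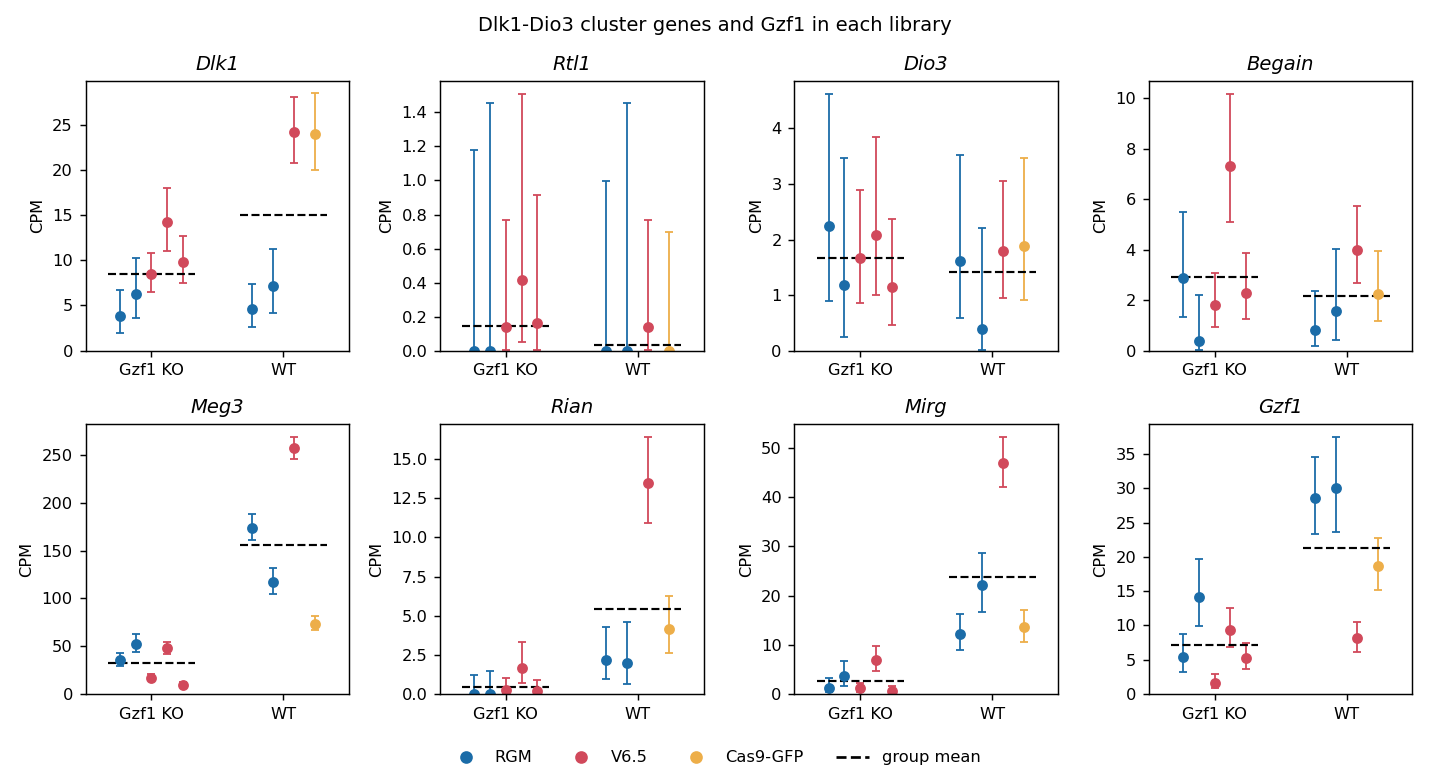
CPM of the 7 cluster genes and Gzf1 in each library (y axes from 0, a scale of its own in each panel), knockout libraries left of wild type and in order of replicate number; points are libraries coloured by cell line, bars are 95% Poisson intervals of the count, and dashed lines are group means. For Meg3 the knockout libraries lie between 9.67 and 52.5 CPM and the wild-type libraries between 73.7 and 257 CPM, while for Dlk1 the knockout libraries of run1 (all V6.5) lie below the V6.5 and Cas9-GFP wild-type libraries and the RGM libraries overlap.

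Whether these genes were called over the whole table depended on filter and tool. With every row of any count kept, edgeR called Meg3 (log2 fold change -2.34, adjusted p = 1.3e-40), Mirg (-3.29, adjusted p = 4.6e-25) and Rian (-3.92, adjusted p = 7.0e-11), and 0.128% of 20372 rows were called lower. limma voom with library weights called Meg3 (log2 fold change -2.07, adjusted p = 0.0080) and Mirg (-3.29, adjusted p = 0.019), with 0.0791% of genes called lower. DESeq2 called neither Meg3 nor Mirg, on the filtered genes (adjusted p = 0.18 and 0.11) or without the filter (adjusted p = 0.24 and 0.14). Without the filter it called Rian (log2 fold change -4.01, SE 0.79, adjusted p = 0.0011), with 0.0442% of rows called lower. The log2 fold change of Meg3 lay between -2.67 and -1.67 and that of Mirg between -4.10 and -2.57 over the 9 edgeR fits that each left out 1 library, and neither was called in any of them (adjusted p from 0.17 and 0.058 upward).

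The maternal RNAs lay lower in the knockout in both runs. In RGM cells (run2, 2 libraries of each genotype) Meg3 had a log2 fold change of -1.73 (SE 0.66, unadjusted p = 0.024) and Mirg of -2.84 (SE 1.01, unadjusted p = 0.016). In run1 (3 knockout and 2 wild-type libraries) the values were -2.76 (SE 0.58, unadjusted p = 0.00053) for Meg3 and -3.49 (SE 0.76, unadjusted p = 0.00069) for Mirg. No cluster gene was called in either run over all tested genes by edgeR (0% of genes called in run2 and 0.0158% called lower in run1). DESeq2, which called 2 and 4 genes, called no cluster gene either. At an unadjusted p under 0.05 edgeR had 104 genes in run2 and 485 in run1. In a fit to the RGM libraries alone, Meg3 (-1.76, SE 0.21, adjusted p = 0.0089) and Mirg (-2.83, SE 0.45, adjusted p = 0.0091) were called, with 0.0779% of 11553 genes called lower. When low rows were kept, edgeR called Meg3 and Mirg in run2 (0.0344% of rows called lower) and Meg3, Mirg and Rian in run1 (0.133% of rows called lower). Taken run by run, Meg3, Mirg and Rian had no overlap of genotypes in run2, as 13.1% of rows with any count did in the same direction, and these genes and Dlk1 had none in run1, as 6.48% of rows did. The difference of the knockout effect between runs was 1.03 (SE 0.87, unadjusted p = 0.26, edgeR) for Meg3 and 0.65 (SE 1.33, unadjusted p = 0.64) for Mirg. Of all tested genes 0% were called for this difference by edgeR (182 genes at an unadjusted p under 0.05, 0 genes called by DESeq2). Without wild-type replicate 3 these differences were -0.14 and -0.53.

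With V6.5 cells alone on both sides of run1, the only wild-type library left was replicate 3, and its lone value was assumed to vary like the other groups. The log2 fold change within run1 was then -3.40 (SE 0.56) for Meg3 and -4.11 (SE 0.78) for Mirg, with adjusted p = 0.59 and 0.61 in edgeR. Without wild-type replicate 3, which leaves the Cas9-GFP line as the wild type, it was -1.59 for Meg3 and -2.31 for Mirg. The size in run1 thus moved with the wild-type library set against the V6.5 knockouts. Each wild-type line of run1 is 1 library, so line and library cannot be told apart. Without knockout replicate 4, Mirg was called within run1 (log2 fold change -5.05, adjusted p = 0.034, edgeR), with 0.0564% of genes called lower.

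Among the V6.5 knockout libraries replicate 4 had the highest CPM of every cluster gene, maternal or not. It had 47.6 CPM of Meg3, 6.89 of Mirg and 1.67 of Rian, against 9.67 to 17.1, 0.656 to 1.11 and 0.164 to 0.277 CPM in replicates 3 and 5. Dlk1 was at 14.2 CPM in replicate 4, against 8.43 and 9.83 CPM in replicates 3 and 5. Begain was at 7.31 against 1.80 and 2.29 CPM. Dio3 was at 2.09 against 1.66 and 1.15 CPM (10 against 12 and 7 counts, with overlapping Poisson intervals). Rtl1 held 2 counts against 1 and 1. How many other rows were highest in replicate 4 was not counted. Replicate 4 also had the lowest total of run1, 4872127 counts. The same library had the most Gzf1 of the 3, at 9.40 CPM, beside 1.66 CPM in replicate 3 and 5.24 CPM in replicate 5. In RGM knockout cells replicate 2 had more Gzf1 than replicate 1 (14.2 and 5.45 CPM), more Meg3 (52.5 and 35.9 CPM) and more Mirg (3.55 and 1.28 CPM). Replicate 5 had more Gzf1 than replicate 3 but less Meg3, so the order of the libraries by Gzf1 was not the same throughout, and a relation across libraries was not tested in samples that fall into genotypes and runs.

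**Figure D2:**
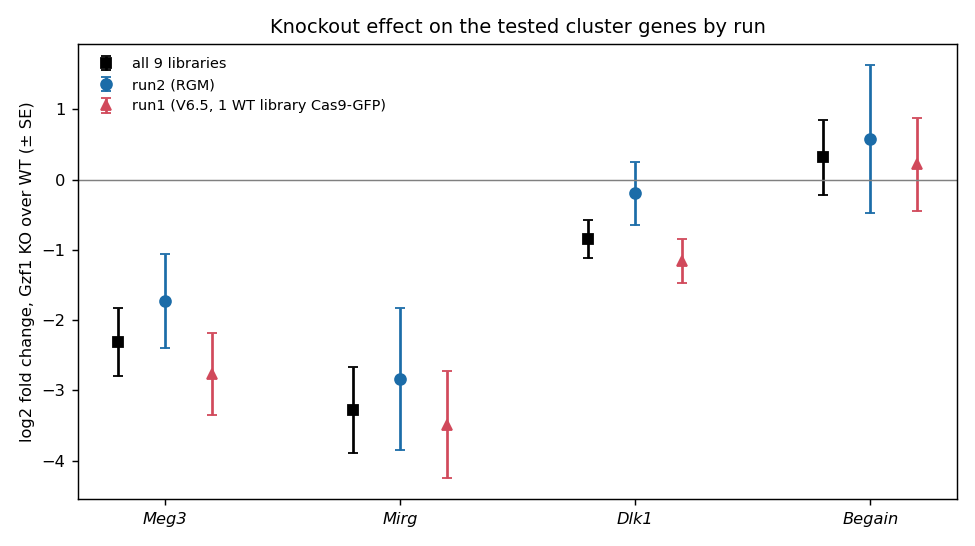
Log2 fold change of knockout over wild type (y axis) for the 4 cluster genes that passed the low-count filter (x axis), for all 9 libraries, run2 and run1; bars are the SE from the edgeR fit. Meg3 and Mirg are negative in both runs, Dlk1 is -0.19 in run2 and -1.16 in run1, and the bars of Begain span 0.

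The proportion of the maternal RNAs to each other varied between libraries. In knockout replicates 1 to 5 there were 3.57, 6.77, 6.45, 14.5 and 6.78 Mirg counts per 100 Meg3 counts, against 6.97, 18.9, 18.3 and 18.4 in wild-type replicates 1 to 4. Apart from wild-type replicate 1, whose exact 95% interval was 5.03 to 9.43, the wild-type libraries lay above all knockout libraries. The intervals of the knockout libraries were wide, from 1.79 to 18.3 in replicate 5 and from 9.73 to 20.9 in replicate 4, and cover counting error only. Rian gave 1.61, 3.51 and 1.69 counts per 100 Meg3 counts in the V6.5 knockout libraries, against 5.23 in wild-type V6.5 and 5.63 in Cas9-GFP cells. In RGM cells it gave 0 in both knockout libraries, where 3 counts would be 2.68 and 2.26 per 100, against 1.24 and 1.68 in wild-type libraries, so a difference was not detectable there at this depth. No test was made of these proportions.

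**Figure D3:**
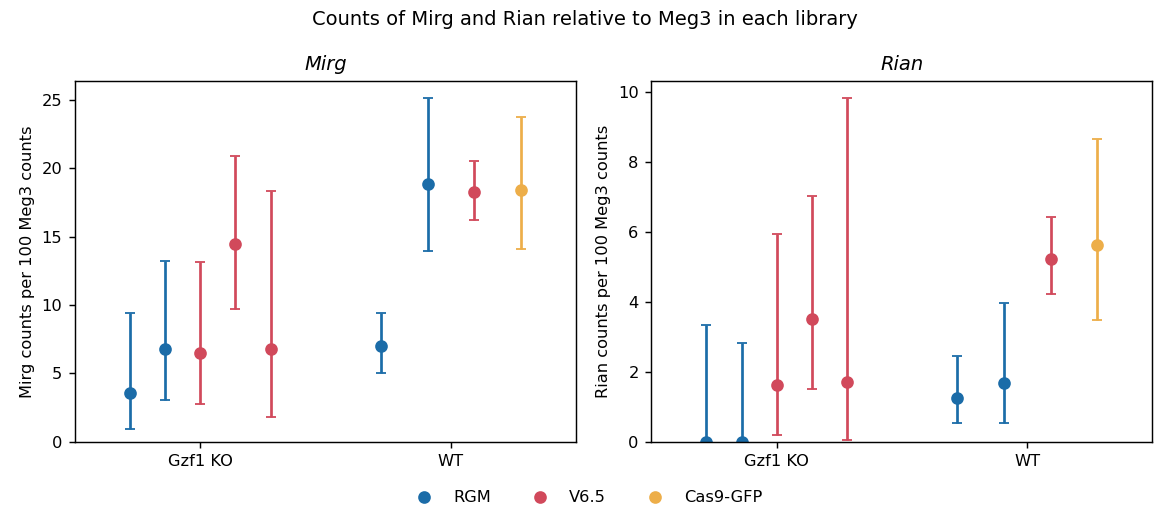
Counts of Mirg (left) and Rian (right) per 100 Meg3 counts in each library (y axes from 0), knockout left of wild type and coloured by cell line, with exact 95% binomial intervals. Mirg stands at 18.3 to 18.9 per 100 in wild-type replicates 2, 3 and 4 and at 3.57 to 14.5 in the knockout libraries, with wild-type replicate 1 at 6.97.

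The paternally expressed Dlk1, a transmembrane homologue of Notch ligands, had lower mean levels in the knockout in run1 and nearly equal ones in RGM cells. It had 3.84, 6.31, 8.43, 14.2 and 9.83 CPM in knockout replicates 1 to 5, against 4.58, 7.10, 24.2 and 23.9 CPM in wild-type replicates 1 to 4. Across all libraries the genotypes overlapped, since both wild-type RGM libraries had little Dlk1. In run1 there was no overlap, with 10.8 ± 3.01 CPM (SD, n = 3) in knockout against 24.1 ± 0.17 CPM (SD, n = 2) in wild-type libraries and a log2 fold change of -1.16 (SE 0.32, unadjusted p = 0.0030, adjusted p = 0.9995 in edgeR). In RGM cells 12 and 16 counts in knockout stood against 17 and 18 counts in wild-type libraries, a log2 fold change of -0.19 (SE 0.45, unadjusted p = 0.68) that turned to 0.12 without wild-type replicate 2 and to 0.14 without knockout replicate 1. Over all libraries the log2 fold change was -0.85 (SE 0.27, unadjusted p = 0.0076, adjusted p = 0.9998, edgeR), with an exact permutation p of 0.05. The difference between runs, 0.97 (SE 0.55, unadjusted p = 0.11), was not called.

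Dlk1 was the 1 tested cluster gene called between wild-type cells of run2 and run1. Wild-type RGM libraries had 4.58 and 7.10 CPM, against 24.2 CPM in V6.5 and 23.9 CPM in Cas9-GFP cells, a log2 fold change of -2.06 for run2 over run1 (SE 0.39, 4.18-fold lower, adjusted p = 0.0036, edgeR). The call was lost without wild-type replicate 1 (log2 fold change -1.76, adjusted p = 0.067). In that comparison 12.3% of tested genes were called lower and 12.1% higher, so 1 lower call among 4 tested cluster genes is no result about the cluster beside these shares. Without the low-count filter Rian was called lower as well (log2 fold change -2.11, adjusted p = 0.0063, edgeR), where 9.94% of all rows were called lower. With the filter, 3 of 7 tested neural markers (8 genes listed) were called lower and 1 higher. Of the fibroblast markers 11 of 24 tested, and of the primitive endoderm markers 3 of 8 tested, were called higher. Of 10 embryonic stem cell markers 2 were called higher and 2 lower. The part of these markers in the level of Dlk1 was not tested. Meg3 did not part the lines in this way, since the V6.5 library had 257 CPM and the Cas9-GFP library 73.7 CPM of the same run, with the RGM libraries at 174 and 117 CPM between them (log2 fold change -0.18, SE 0.62, adjusted p = 0.86). For Mirg the V6.5 library was again the highest at 47.0 CPM, and RGM replicate 1 was the lowest at 12.1 CPM (-0.85, SE 0.78, adjusted p = 0.46). The direction of both turned without wild-type replicate 3, to 0.98 and 0.32.

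Rtl1 and Dio3, the other paternally expressed genes, had few counts. Rtl1 stayed under the floor of 3 counts in every library. Dio3 was under it only in wild-type replicate 2 and reached up to 13 counts. Rtl1, a retrotransposon-derived gene needed in placenta, had 0, 0, 1, 2 and 1 counts in knockout replicates 1 to 5, against 0, 0, 1 and 0 counts in wild-type replicates 1 to 4. No library passed 3 counts, so no difference was detectable at this depth (exact permutation p = 0.3, smallest possible 0.1). The table also holds a row for 6430411K18Rik, which RefSeq lists as another name of Rtl1, with 0, 1, 1, 1 and 0 counts in knockout and 0, 0, 7 and 0 counts in wild-type libraries. Dio3, the deiodinase that inactivates thyroid hormone, had 7, 3, 12, 10 and 7 counts in knockout and 6, 1, 13 and 10 counts in wild-type libraries, or 1.66 ± 0.50 CPM (SD, n = 5) and 1.42 ± 0.69 CPM (SD, n = 4). The genotypes overlapped, with an exact permutation p of 0.65. Its antisense neighbour Dio3os, merged with Mir1247, held at most 1 count in a knockout and at most 3 in a wild-type library.

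Begain, a gene at the Dlk1 end of the region whose product binds the postsynaptic scaffold, had 2.88, 0.395, 1.80, 7.31 and 2.29 CPM in knockout replicates 1 to 5, against 0.809, 1.58, 3.98 and 2.26 CPM in wild-type replicates 1 to 4. The groups overlapped in both runs. Knockout replicate 4, which also had the most Meg3 among the V6.5 knockouts, had the highest value with 35 counts. The log2 fold change of 0.32 (SE 0.53, adjusted p = 0.9998, edgeR) became -0.25 without that library, and the exact permutation p was 0.85.

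Outside these rows the region was nearly silent in the table. Of 62 rows whose symbols lie between the outer ends of Begain and Dio3, 55 were not among the 7 genes, and 6 of those held any count, 28 counts over all libraries against 5329 in the 7 rows. The small nucleolar RNA rows AF357425 and AF357355 held 5 and 1 counts, and Mir376a and Mir495 held 1 each. Beyond the ends, 20 tested genes start within 1 Mb. Their log2 fold changes lay between -0.44 and 0.24 with a median of 0.02, beside a median of 0.01 over all tested genes, and 0 were called by edgeR (0 at an unadjusted p under 0.05), by DESeq2 or by limma voom. Dlk1 at -0.85, Meg3 at -2.31 and Mirg at -3.28 lay below all of these values.

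**Figure D4:**
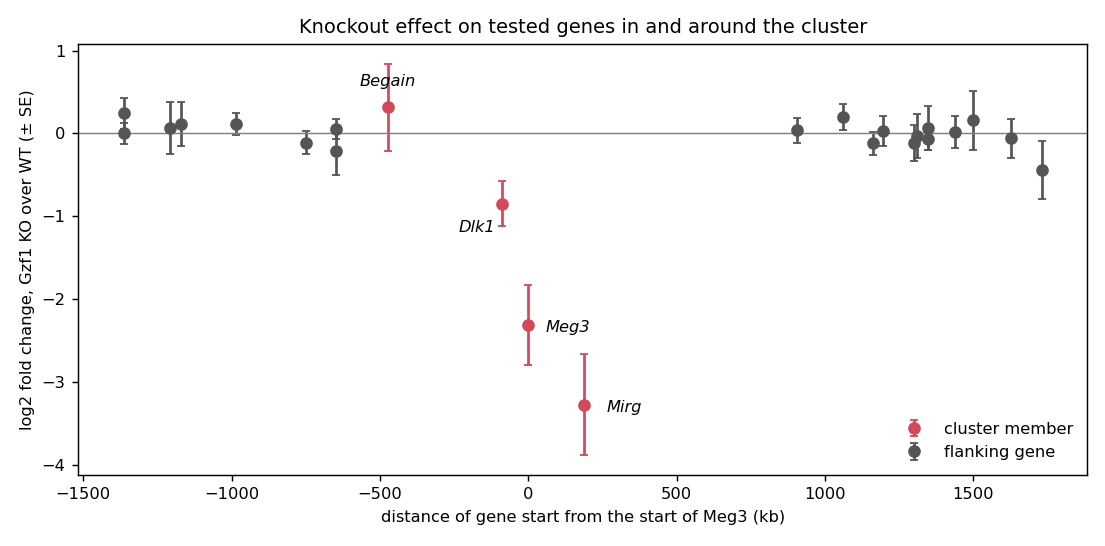
Log2 fold change of knockout over wild type in all libraries (y axis, bars are SE) against the distance of each gene's start from the start of Meg3 in kb (x axis) for the tested cluster genes (red) and 20 tested flanking genes (grey). The flanking genes lie between -0.44 and 0.24, with Dlk1, Meg3 and Mirg below them and Begain at 0.32.

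The 5 genes most like Meg3 across the 9 libraries, by Pearson correlation of log2(CPM + 1) after subtracting run means, were 1600014C10Rik (0.98), Mirg (0.96), Jrk (0.96), Prdx4 (0.96) and Tex261 (0.95) among 12644 genes. Apart from Mirg their log2 fold changes in the knockout were between -0.94 and -0.30. Dlk1 ranked 162nd of these genes with 0.79 and Begain 4311th with 0.18. For Dlk1 the 5 nearest genes were Sh2d4b (0.96), Arid5a (0.94), Mfsd1 (0.94), Itpa (0.94) and Il34 (0.93), while Mirg ranked 57th with 0.85. These correlations are a description of 9 libraries that share genotypes, runs and depth, and carry no test.

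Genes that act on the cluster or downstream of its proteins were measured as lists. Of 20 factors of imprint protection, DNA methylation and Polycomb repression 0 were called, 11 positive and 9 negative, with a median log2 fold change of 0.03. Trim28, the corepressor bound by Zfp57, had 0.06 (SE 0.14) and Dnmt3l, a cofactor of the de novo methyltransferases, 0.19 (SE 0.14). Of 24 Notch pathway genes 20 were tested and 0 called (median 0.05), with the DNA-binding effector Rbpj at 0.03 (SE 0.12) and the target Hes1 at 0.13 (SE 0.17). Of 12 genes of thyroid hormone metabolism and response 7 were tested and 0 called (median 0.13), with the corepressor Ncor1 at 0.22 (SE 0.13) and the receptor partner Rxrb at -0.04 (SE 0.14). At an unadjusted p under 0.05 edgeR had 0 genes in each of these lists, and DESeq2 and limma voom called 0. Beside these lists the median over all tested genes was 0.01.

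Between wild-type libraries some genes of these lists were called. Line, batch and depth cannot be told apart in this comparison, and a relation of these genes to Dlk1 was not tested. Wild-type RGM cells had 5 of 20 Notch pathway genes higher and 0 lower than wild-type cells of run1 (edgeR, beside 12.1% of all genes called higher), while DESeq2 called 4 of the list. They were the target genes Hes1 (log2 fold change 1.25, SE 0.22), Hey1 (2.09, SE 0.37) and Nrarp (2.29, SE 0.59), the ligand Jag1 (1.34, SE 0.35) and Dlk2, the homologue of Dlk1 (1.93, SE 0.64). Of the imprint and methylation factors 3 of 20 were called lower by edgeR, a share near the 12.3% of all genes and no result about the list: Zfp57 (-1.98, SE 0.35), Tet2 (-1.72, SE 0.30) and Atrx (-1.97, SE 0.25), and Dnmt3l was higher (0.95, SE 0.20). DESeq2 called 6 of this list. Among the thyroid hormone genes 1 of 7 was called lower, Ncor1 (-0.97, SE 0.20), also near that share.

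Other cell types that express cluster genes were measured through their markers. Fibroblast markers (25 genes, the feeder layer being fibroblasts) summed to 4268 and 6478 CPM in knockout and 5349 and 4845 CPM in wild-type RGM libraries, and to 2499 to 3407 CPM in knockout and 2364 to 2886 CPM in wild-type libraries of run1. The sums of the genotypes overlapped in both runs. Their median log2 fold change in the knockout was 0.17 with 0 of 24 tested genes called. Of the 25 genes only Lum was at 0, in 1 library. Vim, the most abundant of the list, had -0.06 (SE 0.14) and Fn1 0.18 (SE 0.12). The neural markers summed to 65.3 and 71.0 CPM in knockout and 84.4 and 62.4 CPM in wild-type RGM libraries. In run1 they summed to 257, 188 and 158 CPM in knockout replicates 3 to 5 against 265 and 267 CPM in wild-type libraries. Tubb3 was the most abundant of the list, at a mean of 83.1 CPM in knockout and 112 CPM in wild-type libraries. Within run1 3 of 7 tested genes were positive and 4 negative, with a median log2 fold change of -0.007. The neural sums of the genotypes did not overlap in run1 but overlapped in RGM cells. Of all rows with any count, 6.48% had every knockout library below every wild-type library in run1. Over all libraries 0 of 7 tested genes were called in the knockout (median log2 fold change 0.03), with Tubb3 at -0.46 (SE 0.24) and Olig1 at 0.03 (SE 0.27). Olig2 was at 0 in 4 libraries and Olig1 in 2 libraries. Primitive endoderm markers (10 genes) summed to 833 to 1057 CPM in knockout and 902 to 944 CPM in wild-type libraries of run2, and to 863 to 890 CPM in knockout and 682 to 816 CPM in wild-type libraries of run1, where the genotypes did not overlap. Most of this sum was Sparc, at a mean of 684 CPM in knockout and 621 CPM in wild-type libraries. Sparc and Pdgfra are also in the fibroblast list, so these sums do not measure endoderm alone. Over all libraries 0 of 8 tested were called, with Sparc at 0.15 (SE 0.12) and Lamb1 at 0.11 (SE 0.15). Within run1 0 were called by edgeR or DESeq2, with a median log2 fold change of 0.28. There 3 had an unadjusted p under 0.05 in edgeR, as did 485 of 12645 tested genes. Embryonic stem cell markers had a median log2 fold change of -0.01 with 0 of 10 called, Dppa5a at -0.33 (SE 0.18) and Tdgf1 at 0.19 (SE 0.15). Over all libraries an unadjusted p under 0.05 was found for 1 embryonic stem cell marker and 0 of the other 3 lists (edgeR). It was found for 293 of 12645 tested genes. DESeq2 and limma voom called 0 in all 4 lists. The part of these cell types in the levels of the cluster genes was not tested.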

How the data were processed

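The authors deposited raw counts per gene symbol from 9 MARS-seq2.0 libraries as 1 table. The submitters' processing notes name STAR, DESeq2 and mm10, with no version or role for any of them. Counter, annotation, strand handling and the use of molecular identifiers: not given in the sources used here. Of 30324 rows, 92 spike-in rows (1 count in all) were left out. All 9 columns were matched to samples through the library names in the labels.

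The labels gave each library's genotype, line and run. Nothing says that libraries came from separate cultures, so a p-value measures only how these libraries spread, and that spread may be technical. Libraries sharing genotype and run differed beyond sampling noise (chi-square per degree of freedom 2.64 to 26.5), so each counted as 1 replicate. Genes were kept with filterByExpr (minimum count 10), which left 12645 genes, 4 of the 7 cluster genes among them. TMM-scaled counts were fitted with run and genotype as terms by edgeR 4.0.16, and robust quasi-likelihood p-values were adjusted after Benjamini-Hochberg over all tested genes (threshold 0.05). Contrasts within runs and between wild-type libraries came from a fit of 4 groups. SEs were computed from log2 fold change and F statistic. Low rows were tested by exact permutation of genotype labels on log2(CPM + 1), each run by itself. Poisson and binomial intervals are exact at 95% and cover counting error only. Alternatives were DESeq2 1.42.0, limma 3.58.1, no low-count filter, other scalings, a pseudocount of 0.25, no run term, a replicate block, each run alone and leaving out each library. The fits were tested on simulated data. The genes, lists and tests were chosen with earlier results of these data known. Named genes are the 7 cluster genes, Gzf1, other rows of the interval, the 5 genes most like Meg3 and Dlk1, and for each list the 2 most abundant members and those past the threshold; of the cell type markers those called between wild-type libraries are given by number. The values of 1 neural marker are not reported here.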

Additional observations from a re-analysis of the deposited data

Results flagged for a closer look

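Gaps within a group of libraries were examined for each of the 7 cluster genes in each genotype, and chance gives such a gap in about 1 of 20 groups. That rate need not hold for rows of few counts such as Rian and Rtl1, and each group pools both runs. Rian stood apart in knockout replicate 4 (V6.5), at 1.67 CPM or 8 counts, while the other 4 knockout libraries held 0 to 2 counts. Rtl1 stood apart in wild-type replicate 3 (V6.5), at 0.137 CPM, which is 1 count where the other wild-type libraries held 0.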

How the results depend on the processing

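In the comparison of all libraries 0 of the tested cluster genes were called by edgeR with the low-count filter; 3 were called without the filter (Meg3, Mirg and Rian), 2 by limma voom (Meg3 and Mirg) and 1 by DESeq2 without the filter (Rian), and the genes called over the table numbered 4 with the filter, 35 without it, 10 by voom, 7 by DESeq2 and 2 without the run term. Within run2, 2 cluster genes were called without the filter (of 7 genes called) and 2 with the run2 libraries alone (of 9), within run1 3 without the filter (of 46, 27 of them lower), and between wild-type libraries 2 without the filter (Dlk1 and Rian, of 3866, 2025 of them lower). The number called over fits without 1 library was 0 to 1 in run1 (1 without knockout replicate 4) and 0 to 1 between wild-type libraries (0 without wild-type replicate 1). Cluster genes with an exact permutation p under 0.05 numbered 0 to 3. Meg3, Mirg and Dlk1 kept a negative log2 fold change over all libraries in every alternative run. With 1 library left out, directions turned within these ranges of log2 fold change: Begain -0.25 to 0.49 over all libraries, -1.48 to 1.32 in run2 and -0.64 to 0.23 in run1 (6 fits each, since it failed the filter in the others); Dlk1 -0.58 to 0.14 in run2; the difference between runs -0.14 to 1.89 for Meg3, -0.53 to 2.21 for Mirg and -1.70 to 1.23 for Begain; the wild-type contrast -0.82 to 0.98 for Meg3 and -1.48 to 0.32 for Mirg. The causes were not tested.

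Replicate numbers were treated as names: libraries with the same number correlated between -0.077 and 0.35 in their deviations from genotype-by-run means. With a replicate block in place of run, 0 cluster genes and 6 genes were called, and Meg3 had a log2 fold change of -1.98 (unadjusted p = 0.063, edgeR) and Mirg of -2.90 (unadjusted p = 0.0086). Depth limits Rtl1, Rian and Dio3, whose counts per library were 2, 98 and 13 at most.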
